A study of Mus musculus with 4 samples.

Results

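Ribosome footprints of extracellular matrix and integrin genes were compared between mouse embryonic fibroblasts that received a control siRNA and fibroblasts that received an siRNA against eIF1A. The genes were taken by symbol from a table of 4878 genes. The symbols covered collagens, laminins, lysyl oxidases, fibulins, Emilin and lysyl and prolyl hydroxylases of collagen. They also covered Adamts and Mmp proteases, thrombospondins, Timp inhibitors, integrin chains and single genes such as Fn1, Sparc, Tnc and Hspg2. Fibrillins were sought too, but none was among the genes that matched. In all, 55 of the 4878 genes matched. They were 10 collagens, 9 collagen-modifying enzymes, 18 glycoproteins, 2 proteoglycans, 10 proteases and inhibitors and 4 integrin chains, and 2 further genes matched by their symbol without coding for a matrix protein or an integrin. Those 2 were Col4a3bp, whose product transfers ceramide between membranes and which RefSeq lists as Cert1, and Itgb1bp1, an adaptor inside the cell that binds integrin tails.

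The study had 4 libraries of ribosome profiling, a method that sequences footprints, the pieces of mRNA that a ribosome shields from RNase. Both groups were fibroblasts between passage 5 and passage 8, transfected with Lipofectamine RNAimax, and the 2 siRNAs carry the names Si-Negative control and Si-eIF1A (X+18). Each group had 2 libraries, and the labels do not say that they came from separate cultures. The p-values thus rest on the spread between 2 libraries, partly or wholly pooled over genes, and that spread may be technical. eIF1A is the initiation factor that helps the small ribosomal subunit scan the leader of an mRNA and choose the start codon. Its own genes were not analysed here, so the knockdown was not checked. Footprints reflect both how much of an mRNA is present and how well it is translated, RNA-seq was not used here, and fewer cells of a type and less RNA per cell cannot be told apart in such bulk samples.

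Fibroblasts build most of the matrix of connective tissue. Collagen chains are hydroxylated on proline and lysine in the endoplasmic reticulum by the P4ha and Plod enzymes, fold into triple helices, are trimmed outside the cell by proteases such as Adamts2, and are crosslinked by lysyl oxidases. Fibrillar collagens give tensile strength, collagen VI forms microfibrils around cells, and collagen IV, laminins, nidogens and perlecan form the sheet of the basement membrane. Fibronectin and thrombospondins link the matrix to cells, integrins are the cell surface receptors that bind it, and Mmp and Adamts proteases, held in check by Timp inhibitors, cut it. Several prolyl and lysyl hydroxylase genes are also known to be raised by hypoxia-inducible factors, through a short promoter core. Only the form ACGTG was searched for here, and other forms of the core were neither counted nor marked.

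The core and the bases around it are given as sequence context for these enzymes; they were chosen after the values were seen, and no relation between the core and the footprints was tested. One of the genes shown, Plod3, did not pass the threshold for coding footprints (log2 change with the eIF1A siRNA -0.52 ± 0.29, SE; limma adjusted p = 0.197). RefSeq promoter windows of the mouse build GRCm38.p6 were found for 43 of the 55 genes, and ACGTG stood on either strand within the 250 bases before the annotated start in 7 of them (16.3%), against 4998 of 27025 genes with a window (18.5%). Of the 5 enzymes with a window, 3 held it, P4ha1, P4ha2 and Plod3. The other 4 genes with the core were Col5a1, Fbln1, Mmp14 and Timp1. The 30 bases around the core follow for the 3 enzymes, 5′ to 3′ on the plus strand, with the core in capitals; in P4ha1 it is read on the opposite strand, as CACGT.
P4ha1, chr10:59323266-59323295: ggtgtgacagagcgCACGTagcgagggctg
P4ha2, chr11:54100834-54100863: tgtgcatcgcatACGTGcagcgcgtggcgg
Plod3, chr5:136986953-136986982: cttgaagtcattACGTGatgttcccttgga
The core lies 16 to 12 bases before the annotated start in P4ha1, 78 to 74 bases in P4ha2 and 54 to 50 bases in Plod3, and the P4ha1 window falls inside the span of the gene's RefSeq annotation. A match to these letters is a description of the window.

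The deposited values are normalized read numbers per gene, 1 for the coding sequence and 1 for the 5′ UTR, the untranslated leader upstream of it. Each is a whole number of reads times a factor of its library, so whole reads were recovered; the listed genes held 617663 and 547916 reads in the controls and 458191 and 280649 with the eIF1A siRNA. Here and below, paired values are those of replicate 1 and then replicate 2. No value was below 1 read, and genes without a read may have been listed at that value. The defining fibroblast markers listed were Vim, Prrx1, S100a4 and Fn1, 4 of 11, and the others on that list were not analysed here; no endothelial marker (of 5) or leukocyte marker (of 6) was listed. Vim, an intermediate filament gene of fibroblasts, had 671 and 488 normalized coding reads in the controls and 1227 and 455 with the eIF1A siRNA, a log2 difference of 0.38 ± 0.39 (SE; limma adjusted p = 0.481). S100a4, a small calcium-binding protein of fibroblasts, had 149.8 and 135 against 18.3 and 17.6 and fell by 2.92 ± 0.31 (SE; limma adjusted p = 2.40e-05). Of the pericyte and smooth muscle markers, 3 of 6 were listed, with summed levels of 413 and 617 normalized coding reads in the controls and 176 and 155 with the eIF1A siRNA. Notch3 and Cspg4 of that list fell by 2.45 ± 0.34 and 1.68 ± 0.31, Mcam did not pass, and their part in the matrix results was not tested. The 3 calls among these markers were lost without control replicate 2. The 3 fibroblast markers other than Fn1, which is a member, summed to 887 and 686 reads against 1299 and 540, with overlapping groups.

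The matrix and integrin genes together took a smaller share of the coding reads with the eIF1A siRNA. Their share was 4.87% (95% Wilson interval 4.81 to 4.93%) and 6.46% (6.39 to 6.53%) in the controls and 2.69% (2.63 to 2.74%) and 3.17% (3.09 to 3.25%) in the knockdown libraries. The intervals cover counting error only. Collagens held 1.14% and 1.56% of coding reads in the controls and 0.279% and 0.362% with the eIF1A siRNA, and collagen-modifying enzymes went from 0.488% and 0.505% to 0.172% and 0.177%. Glycoproteins held 2.37% and 3.29% in the controls and 1.64% and 1.95% with the eIF1A siRNA, proteases and inhibitors 0.251% and 0.222% against 0.106% and 0.0944%, proteoglycans 0.498% and 0.756% against 0.392% and 0.462%, and integrins 0.108% and 0.119% against 0.09% and 0.111%. The groups did not overlap in 5 of these 6 classes, and overlapped for the integrins, where 1 knockdown library stood between the controls. Fn1 made up a larger part of what was left: 15.9% and 18.5% of the members' coding reads in the controls and 22.1% and 25% in the knockdown libraries. With 2 libraries against 2 these shares carry no test.

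**Figure D1:**
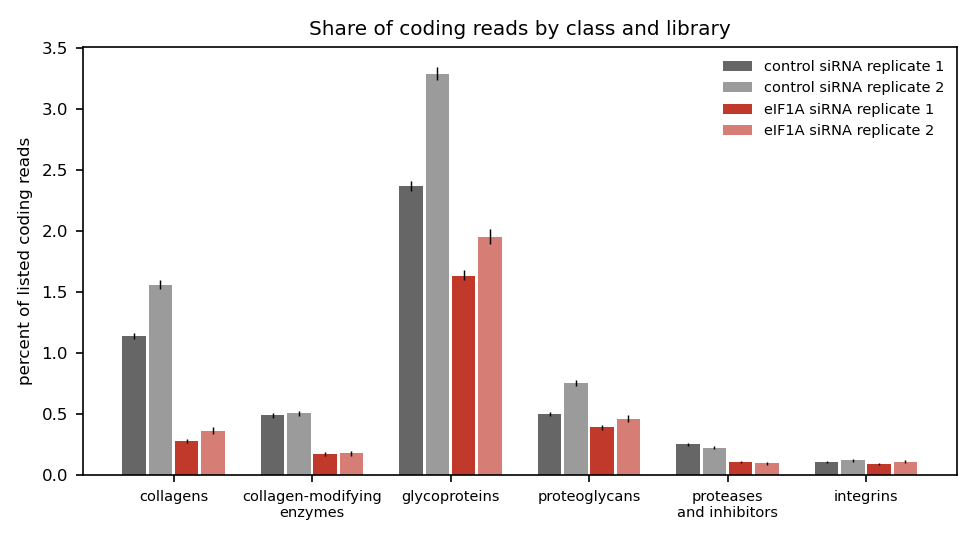
Share of all listed coding reads held by each class of matrix and integrin genes, in percent, with 1 bar for each of the 4 libraries and its 95% Wilson interval as a thin line. Collagens stand at 1.14% and 1.56% in the controls and at 0.279% and 0.362% in the eIF1A siRNA libraries, while integrins overlap.

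Most of these genes lost coding footprints, and none gained them past the threshold. In the fit over 4619 genes (limma on log2 of the normalized reads plus 1, Benjamini-Hochberg adjusted p under 0.05), 40 of the 55 genes were lower with the eIF1A siRNA, 0 were higher and 15 did not pass. Of the 40, 9 (Adamts2, Adamtsl4, Col5a3, Col8a2, Emilin1, Itga11, Lama4, P4ha3 and Thbs2) had a knockdown mean under the 10 normalized reads that the filter asks of the overall mean, so they were tested through their controls; all 9 were also called with no filter. At an unadjusted p under 0.05, 1 was higher, and edgeR and DESeq2 called 2 and 1 higher. Among all 4619 genes, 29.3% were called, 18.7% lower and 10.6% higher. The median log2 change was -1.51 over the 55 genes and -0.16 over all genes. Both knockdown libraries lay below both controls in 45 of the 55 genes, against 40.1% of all genes, and above both in 2, against 26% of all genes. The members also had more reads than most genes, with control medians of 285 and 243 coding reads, where all genes had 52 and 41. At a mean of 50 normalized reads or more, 28 of 37 members fell, against 29.4% of the 1858 genes tested there. Without control replicate 1, 23 of the 40 kept their call. Without control replicate 2 only Col16a1, Col6a1, Col6a2 and P4ha1 did, while 35 of the 55 still had an unadjusted p under 0.05. None of the 40 changed sign in any alternative that was run. With TMM factors, which bring the median of all genes to 0.01, 38 members were lower and 1, Thbs1, was higher, beside 764 lower (16.5%) and 789 higher genes (17.1%) in all.

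The 2 controls were not alike for these genes. Control replicate 2 was above control replicate 1 in 41 of the 55 genes (74.5%), in 10 of 10 collagens and in 17 of 18 glycoproteins, against 43.8% of all genes tested. Knockdown replicate 2 was above replicate 1 in 24 of 55 (43.6%), against 29.6% of all genes. The spread between the controls thus ran in one direction across the collagens and glycoproteins, and its part in the result was not tested; all 10 collagens had both knockdown libraries below the lower control.

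**Figure D2:**
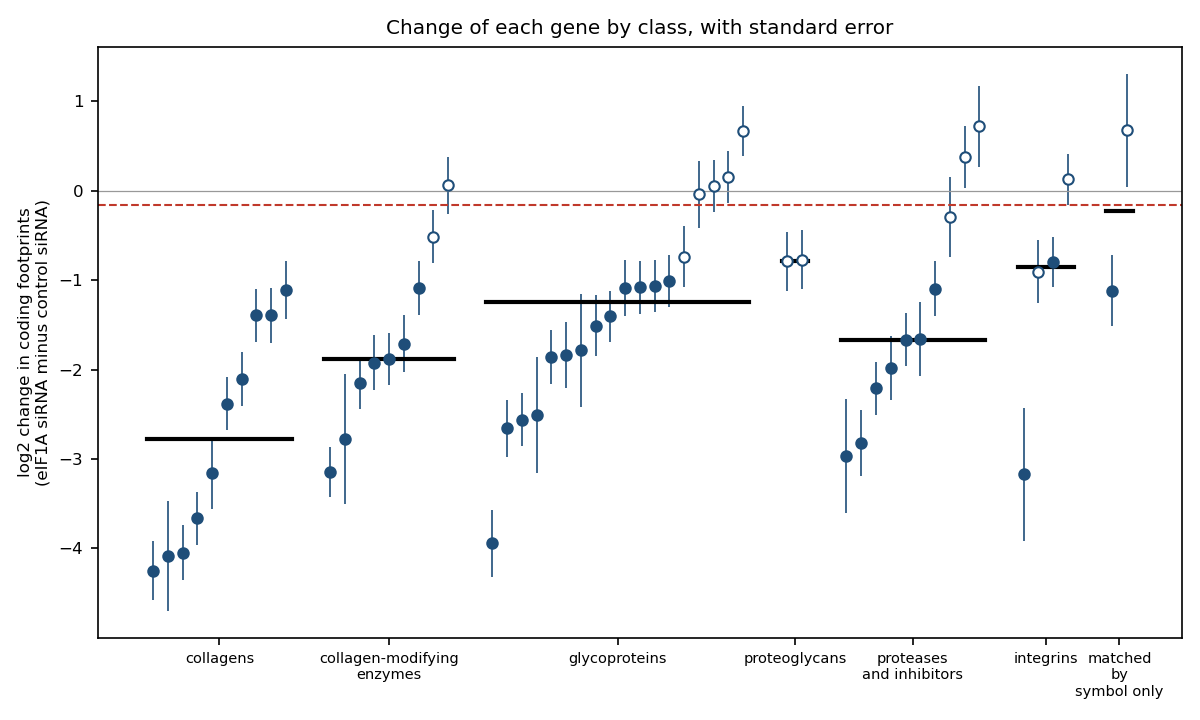
Log2 change in coding footprints (eIF1A siRNA minus control siRNA) of each of the 55 genes, ordered within its class, with the standard error as a vertical bar. Filled points passed an adjusted p of 0.05 and open points did not; the black bars are class medians (-2.77 for collagens, -0.85 for integrins), and the dashed line is the median of all genes, -0.16.

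All 10 collagens fell, beside 18.7% of all genes tested. Their class median was -2.77 on the log2 scale, the lowest of the 6 classes. Col1a1, Col1a2 and Col3a1 were not among these 10 genes, so the result does not cover them. Col16a1 (chr4:130047817-130099277), a chain of a collagen that decorates fibrils, had 226 and 334 normalized coding reads in the controls and 16.3 and 11.2 with the eIF1A siRNA, and fell by 4.25 ± 0.33 on the log2 scale (SE, 2 libraries a group; limma adjusted p = 1.36e-06). Col6a2 and Col6a1, neighbours on chromosome 10 (chr10:76595756-76623630 and chr10:76708792-76726044), code for chains of the same microfibrillar collagen VI. Col6a2 had 405 and 475 reads against 31.5 and 20.8 and fell by 4.05 ± 0.31 (limma adjusted p = 1.36e-06), and Col6a1 had 997 and 1380.3 against 104 and 81.4 and fell by 3.66 ± 0.30 (limma adjusted p = 1.40e-06). Both knockdown libraries lay far below both controls in each of these 3 genes.

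Both listed chains of the fibrillar collagen V fell. Col5a1 had 970.2 and 1373 reads in the controls and 236 and 302 in the knockdown libraries, a fall of 2.11 ± 0.30 (limma adjusted p = 0.000201), and Col5a3 had 64.5 and 109 against 11.2 and 6.38, a fall of 3.16 ± 0.40 (limma adjusted p = 8.34e-05). Col12a1, a collagen that binds to the surface of fibrils, went from 764 and 1111 to 162 and 192 reads and fell by 2.38 ± 0.30 (limma adjusted p = 7.08e-05). Col8a2, a short-chain network collagen, was at the floor in both knockdown libraries, with 35.1 and 40.6 normalized reads in the controls and 1.02 and 1.6, 1 read each, with the eIF1A siRNA (limma adjusted p = 0.000287). Its ratio of control to knockdown reads was 30.3, with a 95% counting interval of 8.15 to 254, and at least 19.8-fold where 1 read is taken off every value and 3 reads over the group are used as the floor.

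The basement membrane collagens also fell, with smaller log2 changes; the difference from the other collagens was not tested. Col4a1 and Col4a2, a head-to-head pair of genes (chr8:11198423-11312889 and chr8:11312805-11449287) whose annotations share 85 bases, code for the most common chains of collagen IV. Col4a1 had 542 and 822 reads in the controls and 254 and 252 with the eIF1A siRNA and fell by 1.40 ± 0.30 (limma adjusted p = 0.00299). Col4a2 had 370.4 and 619 against 171 and 193 and fell by 1.39 ± 0.31 (limma adjusted p = 0.00369). Col18a1, which bears the endostatin fragment at its end, fell by 1.11 ± 0.33, from 84.5 and 107 to 53.9 and 35.1 reads (limma adjusted p = 0.0183). Without control replicate 1 the calls of Col18a1 and Col8a2 were lost, without control replicate 2 the calls of 7 of the 10 collagens, and without knockdown replicate 2 that of Col18a1, which DESeq2 did not call either.

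Of the 9 enzymes that modify collagen, 7 fell and 2 did not pass, beside 18.7% of all genes tested that fell. The 3 catalytic chains of collagen prolyl 4-hydroxylase all fell: P4ha1 (chr10:59323197-59373304) from 504 and 545 to 58 and 59.1 normalized coding reads, by 3.14 ± 0.28 (SE; limma adjusted p = 4.58e-06), P4ha2 from 179 and 140.0 to 45.8 and 36.7, by 1.92 ± 0.31 (limma adjusted p = 0.000425), and P4ha3, the least read of them, from 22.9 and 15.6 to 1.02 and 3.19 (limma adjusted p = 0.00969). P4ha3 rests on 50 control and 3 knockdown reads, whose ratio is 10.5 with a counting interval of 3.40 to 52.7, or 30.3 (5.18 to 1220.2) with 1 read taken off every value. The falls of P4ha1 and P4ha2 come with no overlap between the groups.

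The lysyl hydroxylases were not all called, and whether their changes differ from each other was not tested. Plod2, the enzyme that hydroxylates the telopeptides of collagen, had 224 and 252 reads against 58 and 70.2 and fell by 1.88 ± 0.29 (limma adjusted p = 0.000347), and Plod1 had 213 and 179.8 against 114 and 73.4 and fell by 1.09 ± 0.31 (limma adjusted p = 0.0149). Plod3 did not pass, with a log2 difference of -0.52 ± 0.29 (limma adjusted p = 0.197). It had 169 and 216 reads in the controls and 153 and 117 with the eIF1A siRNA, both below both controls. Among the lysyl oxidases, which crosslink collagen and elastin, Loxl2 fell from 449 and 581 to 125 and 104 reads, by 2.15 ± 0.29 (limma adjusted p = 0.000121), and Lox from 88.8 and 89.9 to 29.5 and 23.9, by 1.71 ± 0.32 (limma adjusted p = 0.00129). Loxl1 had 58.8 and 45.8 reads in the controls and 59 and 49.5 in the knockdown libraries, a difference of 0.06 ± 0.32 (limma adjusted p = 0.913), and its groups overlapped. Plod3 shares 941 bases with Znhit1, and the sources used here do not say whether counting used the strand. Without control replicate 1 the calls of Lox, P4ha3 and Plod1 were lost, without control replicate 2 all but that of P4ha1, and without knockdown replicate 2 that of Plod1.

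**Figure D3:**
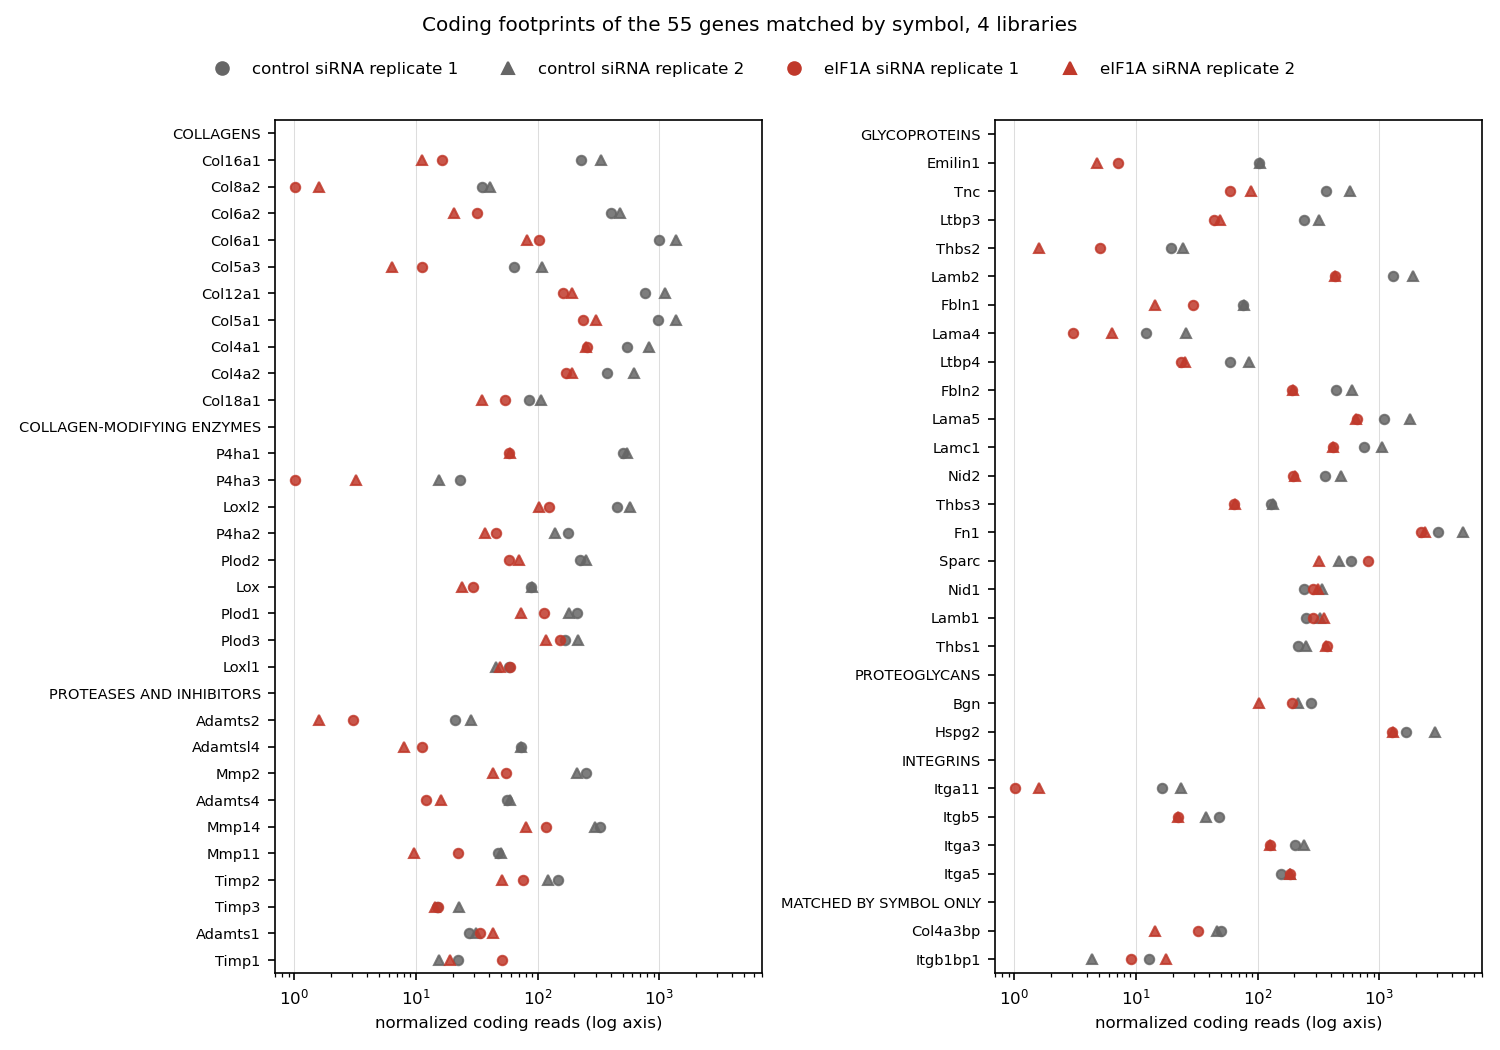
Normalized coding reads (log axis) of the 55 genes by class in the 4 libraries; grey marks are controls, red marks eIF1A siRNA libraries, circles replicate 1 and triangles replicate 2. Col6a1 goes from 997 and 1380.3 to 104 and 81.4, while Thbs1 stands at 215 and 252 in the controls and 373 and 367 with the eIF1A siRNA.

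The 18 glycoproteins spanned the widest range of changes (-3.94 to 0.67), with 13 lower, 5 not past the threshold and a median of -1.25. Among all genes tested, 18.7% were lower. Emilin1, which sits between elastin and microfibrils, had 103 and 105 reads in the controls and 7.12 and 4.79 with the eIF1A siRNA and fell by 3.94 ± 0.38 on the log2 scale (SE; limma adjusted p = 1.00e-05). Ltbp3 and Ltbp4 hold latent TGF-beta in the matrix; Ltbp3 went from 241 and 322 to 43.7 and 49.5 reads, by 2.56 ± 0.30 (limma adjusted p = 4.42e-05), and Ltbp4 from 59.5 and 85.6 to 23.4 and 25.5, by 1.51 ± 0.34 (limma adjusted p = 0.00402). The fibulins, which bind elastin and basement membranes, fell too, Fbln1 from 76 and 76.9 to 29.5 and 14.4 reads, by 1.84 ± 0.37 (limma adjusted p = 0.00213), and Fbln2 from 444 and 601 to 192 and 196, by 1.41 ± 0.29 (limma adjusted p = 0.00231). In all 5 genes both knockdown libraries were below both controls.

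Among the matricellular proteins, which tune adhesion more than they bear load, the genes did not move alike. Tnc, the anti-adhesive tenascin C, had 365 and 578 reads in the controls and 59 and 87.8 with the eIF1A siRNA and fell by 2.66 ± 0.32 (limma adjusted p = 5.22e-05). The thrombospondins Thbs2 and Thbs3 fell by 2.51 ± 0.65 and 1.01 ± 0.29, Thbs2 from 19.3 and 24.2 to 5.09 and 1.6 normalized reads (limma adjusted p = 0.00921) and Thbs3 from 129 and 135 to 64.1 and 65.4 (limma adjusted p = 0.0161). Thbs1, a thrombospondin that activates latent TGF-beta, had 215 and 252 normalized reads against 373 and 367, with both knockdown libraries above both controls and a log2 difference of 0.67 ± 0.28 (limma adjusted p = 0.0844). It did not pass here but passed as a rise with TMM factors (0.84, limma adjusted p = 0.0357), quantile normalization, edgeR and DESeq2, and its adjusted p ranged from 0.0196 to 0.255 over all alternatives. Sparc, a collagen-binding protein, had 583 and 468 reads in the controls and 813 and 318 in the knockdown libraries, which lie on both sides of the controls, with a difference of -0.04 ± 0.37 (limma adjusted p = 0.95) that turned positive with TMM factors (0.13).

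The laminin and nidogen genes of the basement membrane went from a clear fall to little difference. Lamb2, the laminin beta 2 chain, had 1295 and 1906 reads against 429 and 436 and fell by 1.86 ± 0.30 (limma adjusted p = 0.0005), and the alpha chain Lama5 had 1096 and 1784 against 663 and 649.6 and fell by 1.09 ± 0.32 (limma adjusted p = 0.0171). Lamc1, the gamma chain shared by most laminins, had 754 and 1048 against 420.0 and 418 and fell by 1.08 ± 0.29 (limma adjusted p = 0.0125). Lama4, with few reads, went from 12.2 and 25.9 to 3.05 and 6.38 and fell by 1.78 ± 0.63, and Nid2, which joins laminin to collagen IV, from 360.4 and 484 to 195 and 203, by 1.07 ± 0.29 (limma adjusted p = 0.0117). The beta 1 chain Lamb1 and Nid1 stood apart from their relatives: Lamb1 had 249 and 326 reads in the controls and 284 and 353 with the eIF1A siRNA (difference 0.15 ± 0.29, limma adjusted p = 0.728), and Nid1 had 242 and 341 and 286 and 311 (difference 0.05 ± 0.29, limma adjusted p = 0.909). In both genes the groups overlapped. Whether the paralogs differ from each other in their change was not tested.

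Fn1, fibronectin, had the most reads of all members. It had 3032 and 4881 normalized coding reads in the controls and 2209 and 2399 with the eIF1A siRNA, and both knockdown libraries lay below both controls. Its log2 difference of -0.74 ± 0.34 did not pass (limma adjusted p = 0.113) but passed without control replicate 1 (a fall of 1.08, limma adjusted p = 0.0258). Without control replicate 2 none of the 13 glycoprotein calls was kept; without control replicate 1 those of Fbln1, Lama4, Ltbp4, Thbs2 and Thbs3 were lost, and without knockdown replicate 1 that of Lama5. Quantile normalization lost Lama4, Lama5, Lamc1 and Nid2.

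Neither proteoglycan passed the threshold, although both lay lower in both knockdown libraries. Hspg2, perlecan of the basement membrane, had 1673 and 2876 reads in the controls and 1270.3 and 1298 with the eIF1A siRNA, a difference of -0.77 ± 0.33 (SE; limma adjusted p = 0.0914). Bgn, biglycan, a small proteoglycan that binds collagen, had 275 and 214 against 191 and 102, a difference of -0.79 ± 0.33 (limma adjusted p = 0.0788). Both had an unadjusted p under 0.05, and neither edgeR nor DESeq2 called either. Hspg2 passed without control replicate 1 and Bgn without knockdown replicate 1, with falls of 1.16 and 1.24; Bgn also passed where a mean of at least 50 was required (-0.79, limma adjusted p = 0.036).

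Of the 10 proteases and inhibitors, 7 fell and 3 did not pass, with a median of -1.66. Among all genes tested, 18.7% fell. Adamts2, which removes the amino-terminal propeptide of fibrillar procollagens, had 20.8 and 28.5 reads in the controls and 3.05 and 1.6 with the eIF1A siRNA (limma adjusted p = 0.00314). Its 62 control and 4 knockdown reads give a ratio of 9.77 with a counting interval of 3.63 to 37.0, or 18.9 (5.01 to 160) with 1 read taken off every value. Mmp2, gelatinase A, went from 249 and 210.0 to 54.9 and 43.1 reads and fell by 2.21 ± 0.30 (SE; limma adjusted p = 0.000122). Mmp14, the membrane protease that activates Mmp2, went from 323 and 296 to 117 and 79.8 and fell by 1.67 ± 0.30 (limma adjusted p = 0.000904). Timp2, the inhibitor that takes part in that activation, fell by 1.10 ± 0.31, from 147 and 122 to 75.3 and 51.1 (limma adjusted p = 0.0152). The 3 proteins of this activation step thus had lower coding footprints in both knockdown libraries than in either control.

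Adamtsl4, an Adamts-like protein without protease activity that binds microfibrils, had 73.1 and 72.6 reads against 11.2 and 7.98 and fell by 2.82 ± 0.37 (limma adjusted p = 9.84e-05). Adamts4, an aggrecanase, went from 56.6 and 59.6 to 12.2 and 16 and fell by 1.98 ± 0.36 (limma adjusted p = 0.00108). Mmp11, stromelysin 3, went from 47.3 and 50.1 to 22.4 and 9.58 and fell by 1.66 ± 0.41 (limma adjusted p = 0.00762). The 3 genes that did not pass had few reads, but so did some called genes of this class. The overall mean was 33.8 for Adamts1, not called, and 13.5 for Adamts2, called. The part of read depth was not tested. Timp1 had 22.2 and 15.6 in the controls and 50.9 and 19.2 with the eIF1A siRNA (difference 0.72 ± 0.45, limma adjusted p = 0.242); it passed as higher with edgeR (1.07, adjusted p = 0.0246) and without knockdown replicate 2 (1.40, limma adjusted p = 0.00241), and stood at 0.04 without knockdown replicate 1. Adamts1 had 27.2 and 31.1 and 33.6 and 43.1 (0.37 ± 0.35, limma adjusted p = 0.44). Timp3, the inhibitor that stays bound to matrix, had 15 and 22.5 and 15.3 and 14.4 (-0.30 ± 0.45, limma adjusted p = 0.65). Without control replicate 2 none of the 7 calls was kept, and without control replicate 1 only those of Adamtsl4, Mmp14 and Mmp2.

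Of the 4 integrin chains, 2 fell, beside 18.7% of all genes tested. With edgeR and with DESeq2 only 1 of the 4 was called lower. Itga11, the alpha chain of a collagen receptor of fibroblasts, had 16.5 and 23.3 normalized reads in the controls and 1.02 and 1.6, 1 read each, with the eIF1A siRNA (limma adjusted p = 0.00544). Its 50 control and 2 knockdown reads give a ratio of 15.8 with a counting interval of 4.14 to 134, and at least 10.1-fold with 1 read taken off every value and a floor of 3 reads over the group. Itga3, the alpha chain of a laminin receptor, had 204 and 241 reads against 127 and 128 and fell by 0.80 ± 0.28 (SE; limma adjusted p = 0.0443), a call lost with TMM factors, quantile normalization, edgeR, DESeq2 and without any 1 of the 4 libraries. Itga5, the alpha chain of the fibronectin receptor, had 155 and 184 and 185 and 184 reads with overlapping groups (difference 0.13 ± 0.28, limma adjusted p = 0.773). Itgb5, a beta chain of vitronectin receptors, had 48 and 38 and 22.4 and 22.3, with both knockdown libraries lower and a difference of -0.90 ± 0.35 (limma adjusted p = 0.0632) that passed without either knockdown library. Without either control library the call of Itga11 was lost too. Of the genes matched by symbol only, Col4a3bp went from 50.2 and 46.7 to 32.5 and 14.4 reads and fell by 1.12 ± 0.40 (limma adjusted p = 0.0436), a call lost in 6 of 13 alternatives, and Itgb1bp1 had 12.9 and 4.32 and 9.15 and 17.6 reads (difference 0.67 ± 0.63, limma adjusted p = 0.443).

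The members can be set out by the structure they build, in groups formed after their values were seen and therefore given without a test. The 6 fibrillar, microfibrillar and fibril-associated collagens (Col5a1, Col5a3, Col6a1, Col6a2, Col12a1 and Col16a1) had a median of -3.41 and fell by 2.11 to 4.25. The 11 basement membrane genes (Col4a1, Col4a2, Col18a1, Hspg2, Nid1, Nid2 and the laminins) had a median of -1.09. Of these 11 genes 8 fell, and the largest fall was 1.86, in Lamb2. Among all genes tested, 18.7% fell.

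Leader footprints rose over all genes, and in the members they were called higher less often and lower more often than among all genes. This difference was not tested. For the 5′ UTR, 32 of the 55 genes reached the required mean of 10 normalized reads and were tested; genes that pass such a filter only through the group where they are high had to differ. Of the called genes, Thbs1, Plod3 and Col4a3bp had a control mean under 10, and Col6a2 and Tnc a knockdown mean under 10; all 5 were also called with no filter. Of the 32, 7 rose, 3 fell and 22 did not pass, against 44% higher and 2.81% lower (46.8% called) of all 2101 genes tested. The median log2 change was 0.54 for the 32 genes and 1.09 for all genes. As a share of all reads in both regions together, 5′ UTR reads made up 5.49% and 5.15% for the members in the controls and 13.4% and 17.9% with the eIF1A siRNA; for all genes the shares were 11.6% and 13.7% against 20% and 32.4%. With TMM factors, 4 members rose and 1 fell (32.6% and 1% of all genes), and with quantile normalization 2 rose and 13 fell (21.5% and 17.8% of all genes).

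Thbs1 had the largest rise, from 8.6 and 9.51 5′ UTR reads in the controls to 70.2 and 115 with the eIF1A siRNA, by 3.18 ± 0.51 on the log2 scale (SE; limma adjusted p = 3.36e-08). This call held without each library in turn. Lamc1 rose from 25.1 and 25.1 to 71.2 and 110.1 leader reads, by 1.78 ± 0.49 (limma adjusted p = 0.00132), while its coding reads fell. Plod2 went from 7.88 and 14.7 to 19.3 and 51.1, a rise of 1.46 ± 0.54 (limma adjusted p = 0.0189), against the fall of its coding reads, and Plod3 from 5.02 and 12.1 to 23.4 and 31.9, a rise of 1.67 ± 0.56 (limma adjusted p = 0.00993). Fn1 rose from 65.9 and 94.2 to 178 and 208, by 1.28 ± 0.44 (limma adjusted p = 0.0125), and Timp1 from 21.5 and 30.3 to 65.1 and 105, by 1.66 ± 0.49 (limma adjusted p = 0.00294). Col4a3bp, the ceramide transfer gene, rose by 1.56 ± 0.61. In all 7 genes both knockdown libraries were above both controls. That held for 18 of the 32 members tested, against 67.4% of all 2101 genes tested.

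The 3 genes that lost leader footprints also lost coding footprints. Col6a2 had 30.1 and 55.3 5′ UTR reads in the controls and 10.2 and 4.79 with the eIF1A siRNA, a fall of 2.38 ± 0.55 (limma adjusted p = 0.000137), and Col6a1 had 36.5 and 46.7 against 15.3 and 19.2, a fall of 1.22 ± 0.52 (limma adjusted p = 0.0402). Tnc had 20.8 and 34.6 against 7.12 and 12.8 and fell by 1.40 ± 0.56 (limma adjusted p = 0.0286). Of the genes not past the threshold, those with the most leader reads were Bgn (159 and 174 against 249 and 176), Sparc (97.4 and 127 against 195 and 247) and Timp2 (73.8 and 76.1 against 127 and 144), with differences of 0.33 ± 0.43, 0.98 ± 0.43 and 0.84 ± 0.45, of which those of Bgn and Timp2 turned to -0.69 and -0.15 with quantile normalization. TMM factors lost the calls of Col4a3bp, Col6a1, Fn1, Plod2 and Tnc, and quantile normalization kept Thbs1 and Lamc1 among the rises. The calls of Col4a3bp, Col6a1, Fn1 and Tnc were lost with edgeR, and those of Col4a3bp, Col6a1, Plod2, Plod3 and Tnc with DESeq2. Without control replicate 1 only the calls of Thbs1 and Col6a2 were kept, and without control replicate 2 only that of Thbs1. Without knockdown replicate 1 the call of Tnc was lost, and without knockdown replicate 2 those of Plod2 and Col4a3bp.

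**Figure D4:**
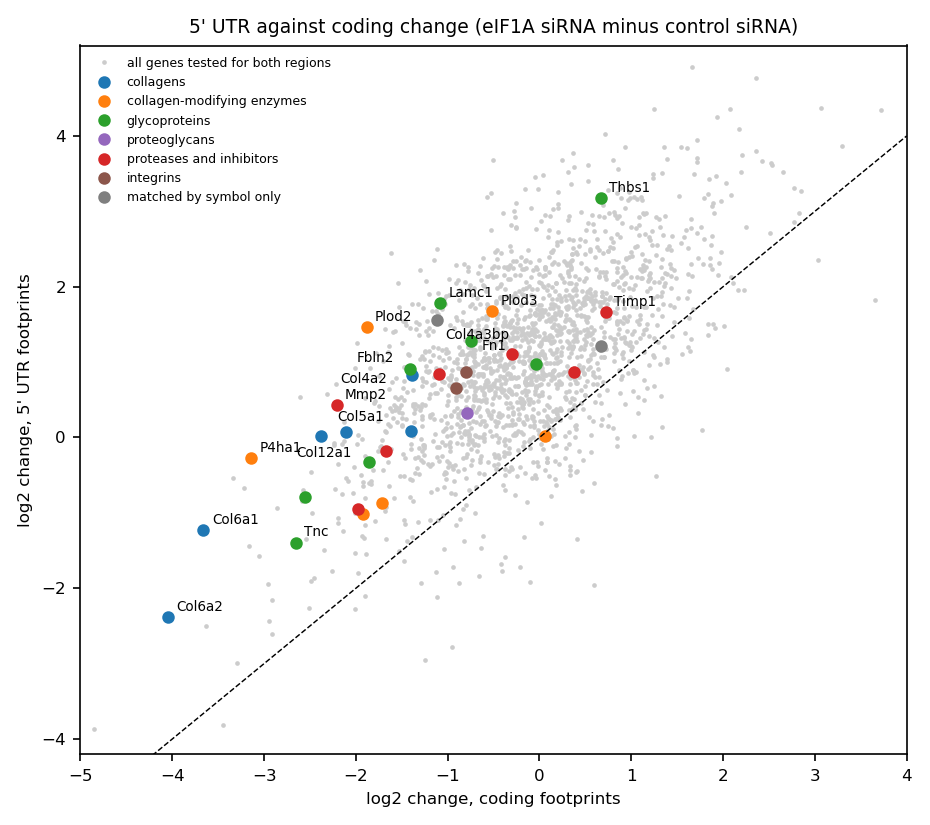
Log2 change (eIF1A siRNA minus control siRNA) in 5′ UTR footprints against that in coding footprints, for the 32 members tested for both regions (coloured by class) and all other genes tested for both (grey); the dashed line marks equal change. Thbs1 stands at 3.18 against 0.67 and Col6a2 at -2.38 against -4.05. Of the 32 members 31 lie above the line, as do most of all genes tested for both regions. The median height above the line is 1.67 for the members and 1.23 for all 1907 genes tested for both regions.

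The ratio of 5′ UTR to coding footprints, tested over 1907 genes, was higher with the eIF1A siRNA in 13 of the 32 members, lower in 0 and not past the threshold in 19. None was lower at an unadjusted p under 0.05 or with edgeR or DESeq2, which called 13 and 14 higher. Of all 1907 genes, 19.5% were called, 19.4% higher and 0.0524% lower, and 1 gene was lower. At a mean of at least 50 normalized reads, 5 of 8 members were higher, against 38.5% of the 286 genes tested there. The median change was 1.67 for the 32 members and 1.23 for all genes, and in 28 of 32 members the knockdown libraries were both above the higher control, against 63.9% of all genes. Both regions come from the same library and carry the same scale factor, so the ratio does not depend on a scaling of whole libraries beyond the pseudocount; quantile normalization, which sets each region's distribution apart, left 0 members past the threshold as higher (0% of all genes; 9 members at an unadjusted p under 0.05) and 1 lower gene in all.

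Plod2 had the largest change in the ratio, with 3.51 and 5.82 leader reads per 100 coding reads in the controls and 33.3 and 72.7 with the eIF1A siRNA, a log2 rise of 3.34 ± 0.76 (SE; limma adjusted p = 0.00114). P4ha1 went from 8.24 and 14.3 to 52.6 and 122 per 100, by 2.87 ± 0.78 (limma adjusted p = 0.00539), where its leader reads (41.6 and 77.8 against 30.5 and 71.8) overlapped between the groups and its coding reads fell. Lamc1 went from 3.33 and 2.39 to 16.9 and 26.3, by 2.86 ± 0.73 (limma adjusted p = 0.00326). The collagens with a higher ratio were Col6a1, from 3.66 and 3.38 to 14.7 and 23.5 (2.44 ± 0.73), Col12a1, from 1.97 and 2.33 to 8.18 and 15.8 (2.40 ± 0.71), Col4a2, from 7.74 and 4.75 to 23.8 and 34.7 (2.22 ± 0.76), and Col5a1, from 2.81 and 3.97 to 14.2 and 16.4 (2.19 ± 0.73), with limma adjusted p-values of 0.0121, 0.0103, 0.0274 and 0.0241. In these 4 collagens leader reads fell less than coding reads or overlapped between the groups, or, in Col4a2, were higher in the knockdown libraries. The 85 bases that Col4a2 shares with Col4a1 lie at the head-to-head ends of these genes. How reads there were assigned is unstated, which leaves the leader reads of Col4a2 uncertain.

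The other genes with a higher ratio were Mmp2, from 11 and 14.8 to 61.1 and 107 leader reads per 100 coding reads (2.63 ± 0.79), Thbs1, from 4 and 3.77 to 18.8 and 31.3 (2.51 ± 0.74), Fbln2, from 1.62 and 2.16 to 7.94 and 12.2 (2.32 ± 0.70), Plod3, from 2.97 and 5.6 to 15.3 and 27.4 (2.19 ± 0.74), and Fn1, from 2.17 and 1.93 to 8.06 and 8.65 (2.02 ± 0.70). Col4a3bp rose by 2.68 ± 0.79. Thbs1, Plod3 and Fn1 had more leader reads, and their coding changes did not pass in the main fit. In both knockdown libraries the coding reads of Plod3 and Fn1 were below both controls, and those of Thbs1 above both. Thbs1 passed as a rise in coding reads with TMM factors, quantile normalization, edgeR and DESeq2. Loxl1, at 50 and 58.5 against 43.1 and 64.5, had the lowest change of the 32, -0.04 ± 0.80, with overlapping groups. No call in this ratio was kept without control replicate 1 or without control replicate 2 (8 members at an unadjusted p under 0.05 in each case); without knockdown replicate 1 all 13 were kept, and without knockdown replicate 2 all but those of Col4a3bp and Plod3.

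**Figure D5:**
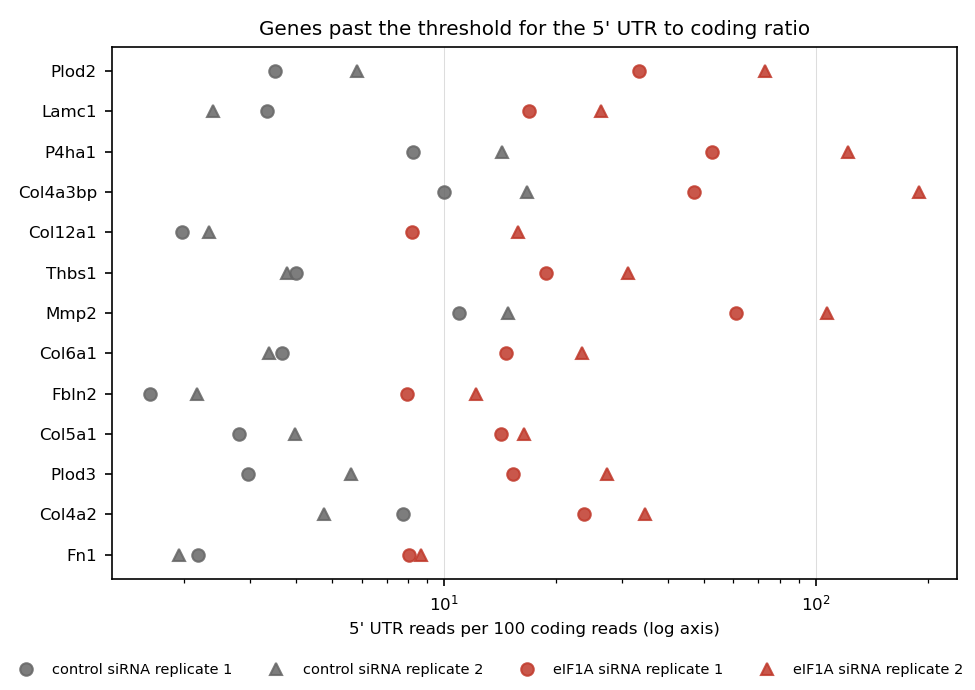
Leader reads per 100 coding reads (log axis) in the 4 libraries for the 13 members whose ratio passed the threshold; each point is 1 library. Plod2 goes from 3.51 and 5.82 in the controls to 33.3 and 72.7 with the eIF1A siRNA, and in all 13 genes both knockdown libraries lie above both controls.

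Genes that fold and export collagen, and matrix genes outside the symbol rule, were taken from lists as well. The list of folding and export genes held 35 symbols, some of them older names of the same gene. Of these, 20 were tested for coding footprints: 11 fell, 1 rose and 8 did not pass. Their median was -1.11 (18.7% of all genes fell and 10.6% rose, with a median of -0.16). The collagen galactosyltransferase Colgalt1 had 235 and 268 reads in the controls and 70.2 and 47.9 with the eIF1A siRNA and fell by 2.09 ± 0.30 (SE; limma adjusted p = 0.000217). Sec24d, a coat protein of the vesicles that leave the endoplasmic reticulum, had 214 and 255 against 62 and 57.5 and fell by 1.95 ± 0.29 (limma adjusted p = 0.000257). Fkbp9, a prolyl isomerase, and Bmp1, the protease that removes the carboxy-terminal propeptide of procollagen, fell by 2.01 ± 0.31 and 1.81 ± 0.30. Sec13, another coat protein, rose by 1.14 ± 0.33, from 61.6 and 37.2 to 123 and 92.6 reads (limma adjusted p = 0.0175). Sec13 and Serpinh1 were chosen here after their values were seen. Serpinh1, the collagen chaperone Hsp47, had 627 and 431 and 765 and 383 reads, with overlapping groups and a difference of 0.06 ± 0.34 (limma adjusted p = 0.919).

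Of 65 other matrix genes, 21 were tested: 10 fell, 2 rose and 9 did not pass, with a median of -0.89, beside the same shares of all genes. With TMM factors and with edgeR 9 fell and 4 rose, and with DESeq2 9 and 3. Cd248, endosialin of stromal cells, had 108 and 124 reads against 10.2 and 3.19 and fell by 4.09 ± 0.44 (SE; limma adjusted p = 2.40e-05). Matn2, a matrilin, had 107 and 104 against 16.3 and 7.98 and fell by 3.10 ± 0.37 (limma adjusted p = 5.43e-05). Svep1 and the fibulin Efemp1 fell by 3.27 ± 0.49 and 1.98 ± 0.32. The 2 that rose, named after their values were seen, were Cyr61, a matricellular integrin ligand, from 30.1 and 24.2 to 113 and 70.2 reads, by 1.69 ± 0.34 (limma adjusted p = 0.00217), and Spp1, osteopontin, from 33.7 and 31.1 to 103 and 70.2, by 1.36 ± 0.33 (limma adjusted p = 0.00608). Without control replicate 2, none of the called genes named from these 2 lists kept its call, and without control replicate 1 those of Sec13, Cyr61 and Spp1 were lost.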

How the data were processed

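Ribosome footprints were sequenced from 4 libraries (2 control siRNA, 2 eIF1A siRNA). Build mm10 and the tools TopHat2, Bowtie, HTSeq, cutadapt and DESeq2 are named, per the submitters' processing notes; versions are not given in the sources used here. The deposited signal, per the file headers, is a normalized read number per gene for the 5′ UTR and the coding sequence. Every value was a whole multiple of 1 read (100% within 0.001), worth 0.717 and 0.864 in the controls and 1.02 and 1.60 in the knockdown libraries, so whole reads were recovered for count tests.

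Values were tested as log2(value + 1) with limma 3.58.1 in R 4.3.3 (empirical Bayes with trend, Benjamini-Hochberg over all genes tested, threshold 0.05), for genes with a mean of at least 10 (4619 for coding, 2101 for the leader, 1907 for the ratio of both). A fold change on this scale understates that of genes with few reads. In the leader and ratio fits every gene received the trend's variance, so the p-values and SE there do not measure a gene's own spread. Alternatives were pseudocounts of 0.5 and 5, no filter, a mean of at least 50, TMM factors, quantile normalization, the replicate block, each library left out, edgeR 4.0.16 (quasi-likelihood) and DESeq2 1.42.0; subtracting 1 read from every value was added after seeing the data. Leaving out a library leaves 1 in its group, assumed to vary like the other group.

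Members came from a symbol pattern; the members and gene lists were chosen with earlier results of these data known. Within each class, values in every library are given for up to 8 called members with the smallest adjusted p and up to 3 uncalled ones with the highest mean, for all members called in the 5′ UTR or the ratio, and for up to 4 genes of each other list. Symbols were matched to RefSeq (GRCm38.p6), 54 directly and 1 by an older name. Some members' annotated spans overlap another gene, and the assignment of reads in such stretches is unstated, which leaves these members' values uncertain; not every overlap is named here. Gene lengths of coding regions were not used, so levels are not compared between genes. The procedure was tested on simulated reads.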

Additional observations from a re-analysis of the deposited data

How the results depend on the processing

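Of the 40 members with fewer coding footprints, 31 kept the call in every alternative that tested them and left out no library. A mean of at least 50 left only 27 of the 40 to test. The calls lost in any of these alternatives were of Itga3, Col4a3bp, Lama4, Lama5, Lamc1, Nid2, Col18a1, Thbs3 and Timp2. The number of called members was 4 to 40 without 1 library at a time, and that of all genes 11 to 1729; a mean of at least 50 gave 788 of all genes. The split of calls among all genes was 864 lower and 488 higher, but 764 and 789 with TMM factors, 694 and 695 with quantile normalization, 812 and 900 with edgeR and 498 and 490 with DESeq2; the members stood at 38 and 1, 35 and 1, 38 and 2, and 34 and 1.

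For the 5′ UTR, 10 members were called, against 5 with a mean of at least 50, 5 with TMM factors, 6 with edgeR, 5 with DESeq2 and 18 with the replicate block. Without 1 library at a time the count was 1 to 17. Over all genes, 983 were called, 232 with a mean of at least 50 and 189 to 1396 without 1 library at a time. For the ratio, 13 members were called, against 26 with no filter on low values, 5 with a mean of at least 50, 0 with quantile normalization (9 at an unadjusted p under 0.05), 22 with the replicate block and 0 to 25 without 1 library at a time. Over all genes the ratio gave 371 calls, against 629, 111, 1 and 851 under the same 4 alternatives in that order, and 0 to 1175 without 1 library at a time. The cause of these shifts was not tested. A higher mean leaves fewer genes to test. At a mean of at least 50, the leader calls were 5 of 9 members and 62.4% of 372 genes. The ratio calls there were 5 of 8 members and 38.8% of 286 genes.

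No member called in any measure changed sign in any alternative run. Among those not called, the coding difference took either sign without 1 library at a time in Itgb1bp1 (-0.018 to 1.37), Lamb1 (-0.042 to 0.35), Loxl1 (-0.12 to 0.23), Nid1 (-0.19 to 0.30) and Sparc (-0.72 to 0.64), and in Serpinh1 (-0.44 to 0.56) and Vim (-0.33 to 1.10) outside the members. Sparc also turned to 0.13 with TMM factors, 0.33 with quantile normalization, 0.22 with edgeR and 0.22 with DESeq2. With quantile normalization the 5′ UTR difference turned to -0.69 in Bgn and -0.15 in Timp2, and the ratio to -0.16 in Bgn and -0.32 in Sparc.

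The shared replicate numbers are not stated to mark a shared day or culture. The deviations of same-numbered libraries correlated at 0.261 over 4619 genes (genes are not independent replicates), and with 2 numbers this is no evidence of pairing. With the replicate block, 1921 genes were called for coding footprints in place of 1352, and 45 members in place of 40, the added ones being Bgn, Fn1, Hspg2 and Itgb5 as lower and Thbs1 as higher.

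Depth limits the genes at or near 1 read: 3 and 4 members held 1 coding read in the knockdown libraries, and 12 to 17 members held 1 leader read in each library. The reads of the listed genes are not the libraries' full depth.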

Other observations

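Adaptor genes that tie integrins to actin were lower where they passed the threshold. Of 44 focal adhesion and integrin adaptor genes, 32 were tested for coding footprints, of which 14 fell, 0 rose and 18 did not pass (limma; 18.7% of all genes fell and 10.6% rose), with a median log2 change of -0.71. At an unadjusted p under 0.05, 1 was higher, edgeR called 1 higher and DESeq2 0. The tensin Tns1 had 119 and 137 normalized reads in the controls and 19.3 and 25.5 with the eIF1A siRNA and fell by 2.47 ± 0.32 (SE; limma adjusted p = 9.09e-05). Ddr1, a receptor tyrosine kinase that binds collagen, had 183 and 228 against 74.2 and 55.9 and fell by 1.65 ± 0.30 (limma adjusted p = 0.00106). The tetraspanin Cd81 and the tensin Tns3 fell by 1.5 ± 0.31 and 1.49 ± 0.31. Without control replicate 2 none of these 4 calls was kept, and without control replicate 1 that of Cd81 was lost.

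Of 24 TGF-beta pathway genes, 7 were tested for coding footprints and 2 fell, with a median of -0.34, beside 18.7% of all genes that fell. The ligand Tgfb1 had 33.7 and 40.6 reads in the controls and 15.3 and 9.58 with the eIF1A siRNA and fell by 1.53 ± 0.41 (limma adjusted p = 0.0111). Ski, a repressor of Smad proteins, had 63.8 and 81.2 against 32.5 and 31.9 and fell by 1.14 ± 0.32 (limma adjusted p = 0.0153). Both calls were lost without either control library and with DESeq2, which called 0 of the 7 (2 had an unadjusted limma p under 0.05). Of the remaining marker lists, the epithelial gene Dsp had 109 and 146 against 82.4 and 71.8 reads and did not pass (limma adjusted p = 0.0876), and it was the 1 listed of 6. Of 7 cartilage and bone markers, 2 were listed, and they summed to 53 and 43.2 reads against 121 and 89.4. Spp1, also on the list of other matrix genes, rose by 1.36 ± 0.33, and Runx2 did not pass (0.27 ± 0.44, limma adjusted p = 0.677); their part in the matrix results was not tested.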
